A study of Mus musculus with 4 samples.

Results

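The 10 genes examined here encode enzymes of mitochondrial fatty acid beta-oxidation: *Cpt1a*, *Cpt2*, *Acadvl*, *Acadl*, *Acadm*, *Hadha*, *Hadhb*, *Hadh*, *Acaa2* and *Etfdh*. They were taken by gene symbol, and all 10 were found among the 21091 entries of each expression table. All 10 also passed the minimum used for ratios, a 4-library mean of 1 FPKM or more (FPKM is a fragment count corrected for the length of the transcript and for how many fragments were mapped), which 12449 entries passed. The study asked what the transcription factor STAT3 does in neural progenitors, and it examined this pathway in these same libraries, so the direction of change over its genes is not independent evidence.

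RNA-seq was carried out on neural progenitors taken from C57BL/6 mouse brains at embryonic day 11 (E11) or embryonic day 14 (E14) and grown for 3 days in suspension. At each stage there was 1 library from control (CTL) cells and 1 from cells with conditional knockout of *Stat3* (*Stat3* cKO), which makes 4 groups of 1. Values of 4 libraries given in a row are in the order E11 CTL, E11 cKO, E14 CTL, E14 cKO. In the cKO the exons of *Stat3* that encode the SH2 domain were flanked by loxP sites and removed by Cre driven by the Nestin promoter, which is active in neural progenitors. The labels call the CTL animals WT and the RNA-seq methods call them wild-type, whereas the animal methods name Nestin-Cre mice with 1 floxed *Stat3* allele as controls. If the CTL lacked Cre, each genotype ratio would also hold a difference in Cre, and these cannot be told apart. The number of embryos behind each library is not given in the sources used here.

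With 1 library per group there was no replicate spread, so no difference given below was tested, and a ratio compares 2 libraries and not 2 conditions. The depth of the libraries is unknown from these tables, and no counting interval could be given. *Stat3* itself was at 7.41 FPKM (CTL) and 6.74 (cKO) at E11 and at 27.6 (CTL) and 9.55 (cKO) at E14. The targeted gene thus separated the genotypes at E14 (0.346 times CTL) but hardly at E11 (0.911 times CTL), and its FPKM covers the whole gene, not the deleted exons alone. The Y-linked gene *Ddx3y* was at 0 in both E11 libraries, 0.0569 FPKM in CTL and 25.1 FPKM in *Stat3* cKO at E14, so sex and genotype cannot be told apart at E14.

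In this pathway a long-chain fatty acid, once joined to coenzyme A, is moved into the mitochondrial matrix by the carnitine shuttle. CPT1 on the outer membrane makes the acylcarnitine, a carrier moves it across the inner membrane, and CPT2 turns it back into acyl-CoA. Acyl-CoA dehydrogenases of different chain-length preference then begin each turn of the spiral, and hydration, a second dehydrogenation and thiolysis release acetyl-CoA. Electrons from the first dehydrogenation pass through the electron transfer flavoprotein to ETFDH, which hands them to ubiquinone in the respiratory chain. Entry through CPT1 is held back by malonyl-CoA, the first committed intermediate of fatty acid synthesis, and in the brain the pathway is best known from astrocytes and neural progenitors rather than from neurons.

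Sequence upstream of 3 start sites is printed because the main results turn on these genes: *Cpt1a* had the largest ratio between stages among the 10, *Cpt2* was the only member past 1.5-fold between genotypes, and the *Hadha* and *Hadhb* genes face away from each other across 1 short shared region. RefSeq on build GRCm38.p6 gave promoters for 9 of the 10 genes, with *Acaa2* named only. Each run covers the 250 bases before the RefSeq start, 5′ to 3′ on the strand of the gene: *Cpt1a* at chr19:3323051-3323300 on the plus strand, *Cpt2* at chr4:107923590-107923839 on the minus strand, and *Hadhb* at chr5:30155003-30155252 on the plus strand. Capitals mark matches to 3 short motifs, searched on both strands: TTCNNNGAA, the letters of a STAT site; AGGTCA, the core letters of sites for nuclear receptors such as the PPARs, printed as TGACCT where it lies on the other strand; and CCAAT, the CCAAT box.
Cpt1a: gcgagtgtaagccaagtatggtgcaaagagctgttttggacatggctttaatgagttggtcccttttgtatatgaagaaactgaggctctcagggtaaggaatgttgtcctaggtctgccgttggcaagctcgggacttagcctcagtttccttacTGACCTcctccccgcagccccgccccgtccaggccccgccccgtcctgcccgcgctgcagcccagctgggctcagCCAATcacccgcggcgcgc
Cpt2: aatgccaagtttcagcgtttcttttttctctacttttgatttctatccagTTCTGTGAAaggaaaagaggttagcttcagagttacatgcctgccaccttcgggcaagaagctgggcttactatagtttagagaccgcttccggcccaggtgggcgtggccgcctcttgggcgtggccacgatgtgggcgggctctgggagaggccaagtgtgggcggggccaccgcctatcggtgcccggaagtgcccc
Hadhb: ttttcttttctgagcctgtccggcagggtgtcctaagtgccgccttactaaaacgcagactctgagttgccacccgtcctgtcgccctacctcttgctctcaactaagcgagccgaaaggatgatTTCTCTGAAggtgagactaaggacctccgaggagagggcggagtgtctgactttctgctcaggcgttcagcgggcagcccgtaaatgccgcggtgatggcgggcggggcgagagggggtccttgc

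The STAT letters of *Hadhb* and *Hadha* lie at chr5:30155128-30155136. The *Hadha* start lies on the opposite strand with 272 bases between it and that of *Hadhb*, and the capitals in the *Hadhb* run are the same match that the *Hadha* window holds. In windows from 250 bases before to 50 bases after the start, 3 of 9 members held TTCNNNGAA (*Cpt2*, *Hadha* and *Hadhb*), against 8.30% of 32851 RefSeq promoters. AGGTCA stood in 3 of 9 (*Cpt1a*, *Acadm* and *Acadvl*) against 16.3% of promoters, and CCAAT in 3 of 9 (*Cpt1a*, *Etfdh* and *Hadh*) against 37.4%. These are matches of letters, and no binding was measured in these libraries.

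At E14 most of the beta-oxidation enzymes lay above CTL in *Stat3* cKO by small ratios, with the carnitine shuttle and the thiolase *Acaa2* at the top and *Acadl* on the other side. Of the 10 members, 8 were higher in *Stat3* cKO, against 39.9% of all genes with a ratio. Their median log2 ratio was 0.24, against -0.08 over all genes. *Cpt2* alone was at least 1.5-fold higher, against 5.82% of all genes, and no member was at least 1.5-fold lower, against 7.67%. The count of 1 at this threshold was 0 with equal FPKM sums, against 4.73% of all genes. It was 2 with the all-gene median at 0, against 7.28%, and 3 under upper-quartile scaling, against 9.07%. With a pseudocount of 1 FPKM it was also 0, a setting for which no share of all genes is given here. The signs held more widely: under every scaling tried, 8 members stayed above 0 on the log2 scale and *Acadl* stayed below 0. *Hadhb* lay between -0.17 and 0.05. Pseudocounts and filters were left out here, since neither can change the sign of a ratio. The share of all genes above 0 moved over these scalings, from 31.9% with equal FPKM sums to 59.7% under upper-quartile scaling, where 9 of the 10 members were higher. The summed level of the members was 422 FPKM in CTL and 471 FPKM in *Stat3* cKO at E14.

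At E11 the deposited levels of the same enzymes lay close to equal between genotypes. Again 8 of the 10 members were higher in *Stat3* cKO, but so were 61.8% of all genes, and the members' median log2 ratio of 0.10 stood beside 0.06 over all genes. No member was at least 1.5-fold higher or lower, against 2.18% and 3.66% of all genes. These values depended on the scaling, for the members as for all genes. Under upper-quartile scaling the members' median at E11 was -0.02 with 3 of 10 higher, against 37.2% of all genes, and with each library scaled to the same FPKM sum it was 0.34 with 10 of 10 higher, against 87.1%. The sum was 206 FPKM in E11 CTL and 224 FPKM in E11 *Stat3* cKO.

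**Figure D1:**
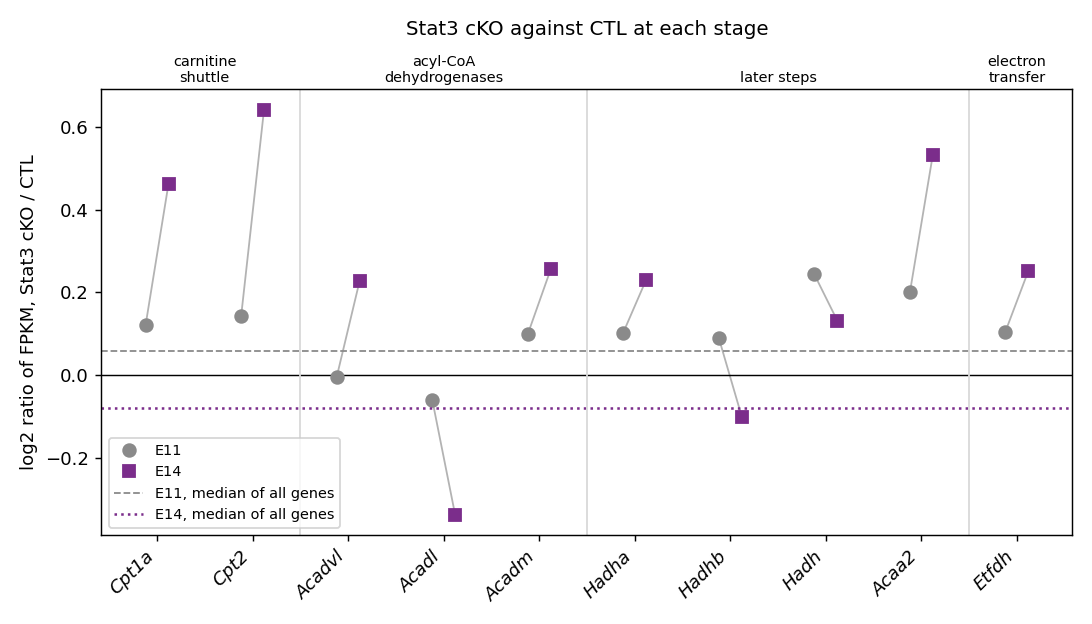
Log2 ratio of *Stat3* cKO to CTL for each of the 10 beta-oxidation enzymes at E11 and at E14, from 1 library per group, with the dashed (E11) and dotted (E14) lines at the median of all genes and no error bars because there were no replicates. The E14 ratios run from -0.34 for *Acadl* to 0.64 for *Cpt2*, a wider span than the -0.06 to 0.24 seen at E11.

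In the carnitine shuttle, *Cpt1a* (chr19:3323300-3385733 as listed in the tables, whose build is not stated) encodes the liver-type CPT1, the step that malonyl-CoA controls. It was at 1.93 FPKM (CTL) and 2.10 (cKO) at E11 and at 12.7 (CTL) and 17.5 (cKO) at E14. Both E14 libraries were far above both E11 libraries, by 6.60 times in CTL and 8.36 times in *Stat3* cKO, and the genotypes differed by 1.09 times at E11 and 1.38 times at E14. *Cpt1a* was the lowest of the 10 members at E11 but not at E14.

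*Cpt2* (chr4:107576586-107596194 as listed) encodes the inner-membrane enzyme of the same shuttle. It was at 8.71 FPKM (CTL) and 9.61 (cKO) at E11 and at 5.23 (CTL) and 8.16 (cKO) at E14. The E14 CTL library was the low one of the 4. *Cpt2* was therefore 1.56 times higher in *Stat3* cKO at E14, against 1.10 times at E11, and E14 CTL stood at 0.600 times E11 CTL. It was the one member with a lower level at E14 than at E11 in CTL under every scaling tried.

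The ratio of *Cpt1a* to *Cpt2* was 0.222 (CTL) and 0.218 (cKO) at E11 and 2.44 (CTL) and 2.15 (cKO) at E14. Such a ratio within a library does not depend on the scaling between libraries. It turned from below 1 to above 1 between the stages in both genotypes, and the genotypes lay close to each other at each stage. *Slc25a20*, the carrier between both enzymes, was at 14.9, 16.3, 29.9 and 32.9 FPKM in the same order, 1.09 and 1.10 times CTL at E11 and E14. *Cpt1c*, the brain CPT1 relative of the endoplasmic reticulum, was picked after its values were seen as a reference for *Cpt1a*, and *Cpt1a* per *Cpt1c* was 0.118, 0.141, 0.951 and 1.16.

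**Figure D2:**
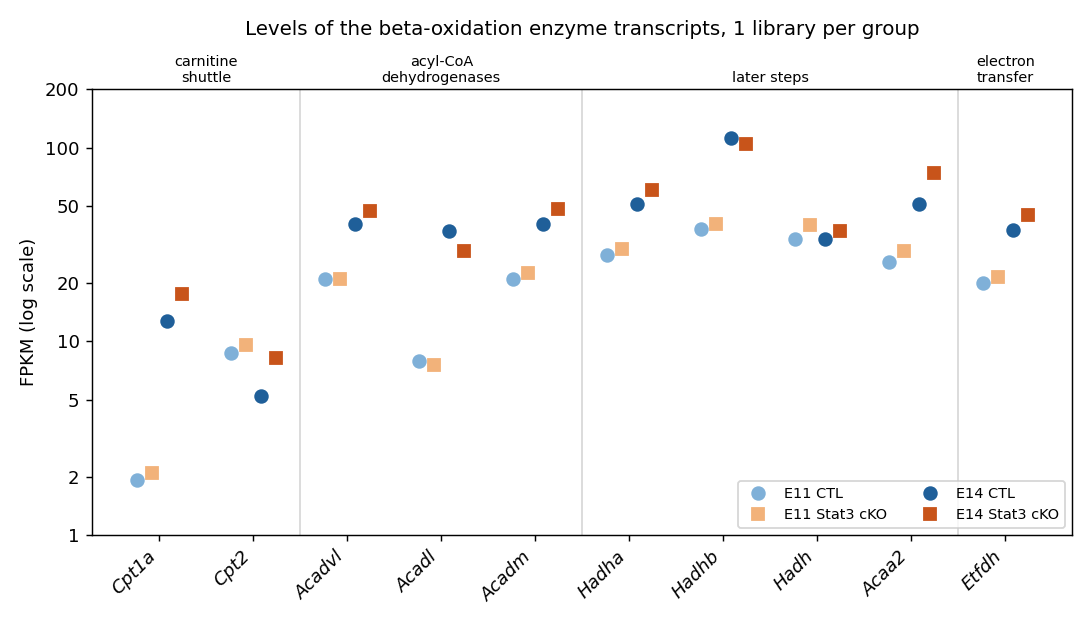
Level in FPKM, on a log axis, of each of the 10 beta-oxidation enzymes in the 4 libraries, 1 point per library. *Hadhb* is the highest of the 10 in each library, from 38.1 to 112 FPKM, and *Cpt1a* lies lowest at E11 at 1.93 and 2.10 FPKM.

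Among the acyl-CoA dehydrogenases, *Acadvl* (chr11:69823684-69828930 as listed) encodes the very-long-chain enzyme, bound to the inner membrane. It was at 20.9 FPKM (CTL) and 20.8 (cKO) at E11 and at 40.4 (CTL) and 47.3 (cKO) at E14. The E11 libraries were equal to within 0.997 times, and the E14 ratio was 1.17 times.

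*Acadm* (chr3:153585316-153607607 as listed), the medium-chain enzyme, had nearly the same levels as *Acadvl*, at 20.9, 22.4, 40.3 and 48.1 FPKM in the same order of libraries. Its genotype ratios were 1.07 times at E11 and 1.19 times at E14. *Acadl* (chr1:66877412-66909883 as listed), the long-chain enzyme, went the other way. It was at 7.87 FPKM (CTL) and 7.55 (cKO) at E11 and at 36.9 (CTL) and 29.2 (cKO) at E14, which is 0.960 times CTL at E11 and 0.792 times at E14. *Acadl* per *Acadm* was 0.376, 0.337, 0.916 and 0.607, so the long-chain enzyme came nearest to the medium-chain enzyme in E14 CTL.

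Of the later steps, *Hadha* and *Hadhb* encode the alpha and beta subunits of the mitochondrial trifunctional protein, which carries out hydration, dehydrogenation and thiolysis of long chains. *Hadha* (chr5:30430123-30481520 as listed) was at 27.97 FPKM (CTL) and 30.04 (cKO) at E11 and at 51.3 (CTL) and 60.2 (cKO) at E14. *Hadhb* (chr5:30481861-30511123 as listed) was at 38.1, 40.5, 112 and 105 FPKM. Both subunits were higher at E14, but at E14 *Hadha* was 1.17 times and *Hadhb* 0.933 times CTL.

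*Hadhb* per *Hadha* was 1.36 (CTL) and 1.35 (cKO) at E11 and 2.19 (CTL) and 1.74 (cKO) at E14. The subunits of 1 protein thus kept a like ratio in both E11 libraries and a different one in each E14 library. The locus listed for *Hadha* is the same interval that the tables give for *Gareml* and *3110082J24Rik*, so the listed start and end need not be those of the gene, and whether reads were divided among these entries is not known. *Gareml* was at 4.47, 5.31, 24.7 and 24.2 FPKM.

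*Hadh* (chr3:130936341-130974955 as listed), the hydroxyacyl-CoA dehydrogenase of medium and short chains, was the flattest of the members. It was at 33.6 FPKM (CTL) and 39.8 (cKO) at E11 and at 33.8 (CTL) and 37.0 (cKO) at E14. The *Stat3* cKO library was the higher at both stages, by 1.18 and 1.10 times, and as deposited its ratio was larger at E11. Its stage ratio of 1.005 in CTL lay on either side of 1 depending on the scaling, from -0.55 to 0.01 on the log2 scale.

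*Acaa2*, the thiolase that ends each turn for medium and short chains, was at 25.5 FPKM (CTL) and 29.3 (cKO) at E11 and at 51.1 (CTL) and 74.0 (cKO) at E14. Its E14 genotype ratio of 1.45 times stood between those of *Cpt2* and *Cpt1a*, just short of 1.5-fold. *Etfdh* (chr3:79407709-79432689 as listed), the electron transfer step, was at 19.9, 21.5, 37.5 and 44.6 FPKM, and was 1.08 times CTL at E11 and 1.19 times at E14. Of its partners that form the electron transfer flavoprotein, *Etfa* was at 13.6, 17.1, 14.2 and 16.4 FPKM and *Etfb* at 37.5, 41.3, 43.4 and 45.4 FPKM. Their stage ratios in CTL were 1.05 and 1.16, against 1.88 for *Etfdh*, whereas their genotype ratios were 1.26 and 1.10 at E11 and 1.15 and 1.05 at E14.

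The genotype ratios at both stages can be set against each other member by member. The log2 ratio at E14 less that at E11 was 0.50 for *Cpt2*, 0.34 for *Cpt1a* and 0.33 for *Acaa2*, and -0.28 for *Acadl*, -0.19 for *Hadhb* and -0.11 for *Hadh*. The median over the 10 was 0.15, and with each library scaled to the same FPKM sum it was -0.15, so the sign of the typical difference between the stages depended on the scaling. The ratio took opposite directions at the 2 stages for *Acadvl* and *Hadhb*, 2 of the 10, against 55.4% of all genes as deposited. Under upper-quartile scaling it did so for 6 of the 10, against 55.9% of all genes. Since no library was repeated, none of these differences was tested.

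Between the stages, the members other than *Cpt2* and *Hadh* were from 1.83 to 8.36 times higher at E14 across both genotypes. In CTL 9 of 10 were higher at E14, against 60.5% of all genes; 8 were at least 1.5-fold higher, against 30.3%, and *Cpt2* was at least 1.5-fold lower, against 18.9%. In *Stat3* cKO 8 of 10 were higher, against 53.3% of all genes, and 8 were at least 1.5-fold higher, against 21.6%, with none at least 1.5-fold lower, against 20.1%. Their median log2 stage ratio was 0.95 in CTL and 1.14 in *Stat3* cKO, against 0.21 and 0.06 over all genes. *Cpt1a* led with 2.72 and 3.06, followed by *Acadl* with 2.23 and 1.95 and *Hadhb* with 1.56 and 1.37.

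The stage counts depended on how the libraries were made comparable, since the FPKM sums were 948740 and 806590 at E11 and 1394000 and 1461800 at E14. Scaling each library to the same sum moved the all-gene median log2 ratio to -0.34 in CTL and -0.80 in *Stat3* cKO. The members at least 1.5-fold higher at E14 were then 3 in CTL, against 11.3% of all genes, and 2 in *Stat3* cKO, against 5.59%. *Cpt2* in CTL and both *Cpt2* and *Hadh* in *Stat3* cKO were then at least 1.5-fold lower, against 38.2% and 62.7% of all genes, and all members but *Cpt2* and *Hadh* still had a higher level at E14 in both genotypes. The E14 minus E11 difference in CTL also went with a difference in marker levels: 6 mesenchymal markers such as *Col1a1* summed to 1284 and 1136 FPKM at E11 but to 15.5 and 10.3 FPKM at E14, and their part in the stage ratios was not tested.

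**Figure D3:**
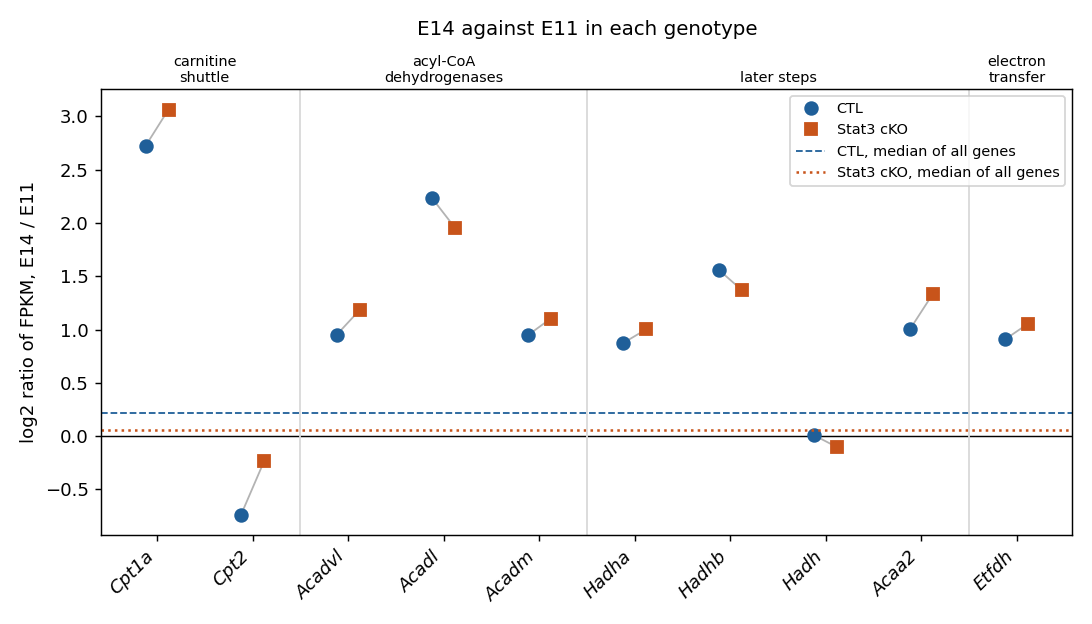
Log2 ratio of E14 to E11 for each of the 10 beta-oxidation enzymes in CTL and in *Stat3* cKO, 1 library per group, with the dashed (CTL) and dotted (cKO) lines at the median of all genes. *Cpt1a* lies highest at 2.72 and 3.06, and *Cpt2* lies below 0 in both genotypes, at -0.74 and -0.24.

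**Figure D4:**
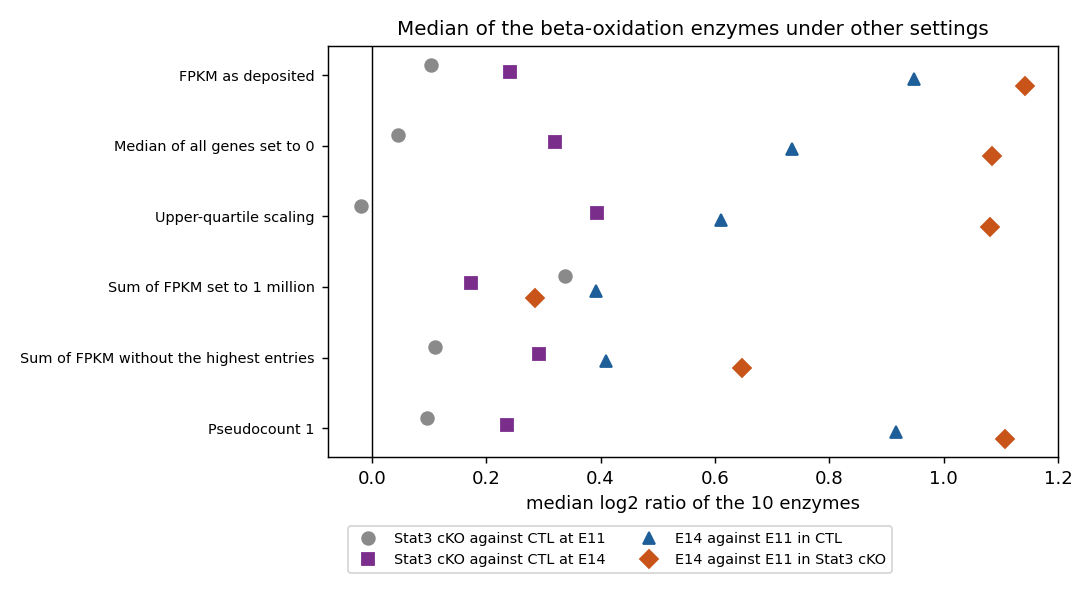
Median log2 ratio of the 10 enzymes (x axis) in each of the 4 comparisons, marked by symbol, with the FPKM as deposited, under 4 other scalings and with a pseudocount of 1 FPKM (y axis). The E14 genotype median stays above 0 in each setting shown, the E11 genotype median reaches -0.02 under upper-quartile scaling, and the stage medians drop to 0.39 in CTL and 0.28 in *Stat3* cKO with each library scaled to the same FPKM sum.

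The labelled cell type was checked by markers. The 7 neural progenitor markers, such as *Nes* and *Sox2*, summed to 1512, 1676, 7461 and 8104 FPKM, and none was at 0. *Fabp7*, which is also on the list of fatty acid binding genes, made up most of the E14 sums, and the other 6 summed to 996, 1082, 2216 and 2175 FPKM. *Pax6* was lower at E14, at 44.2, 48.6, 14.6 and 19.0 FPKM. The 8 neuron markers summed to 696, 725, 1043 and 888 FPKM, and 1 of 8 was higher in *Stat3* cKO at E14, against 39.9% of all genes. The 7 astrocyte markers summed to 161, 195, 295 and 404 FPKM. All 6 with a ratio were higher in *Stat3* cKO at E14, against 39.9% of all genes. Between the stages these 6 were divided, 4 of them higher and 2 lower by 1.5-fold or more in each genotype. The shares of all genes were 30.3% higher and 18.9% lower in CTL, and 21.6% and 20.1% in *Stat3* cKO. *Gja1* was at 138, 174, 13.1 and 15.7 FPKM and *Aldoc* at 2.69, 2.93, 193 and 235 FPKM. *Gfap*, the listed astrocyte marker left without a ratio by its low mean, was at 0.124, 0.0625, 0.901 and 0.186 FPKM, lower in *Stat3* cKO at both stages. The paper describes it as marking only some astrocytes and as depending on STAT3 for its expression. Microglia and leukocyte markers summed to at most 9.58 FPKM and endothelial markers to at most 4.67 FPKM in any library. The 6 mesenchymal markers, however, summed to 1284 and 1136 FPKM in the E11 libraries, so these were not free of other cell types by their markers. In such bulk samples fewer cells of a type and less RNA per cell cannot be told apart, and the part of the astrocyte and neuron markers in the E14 genotype ratios was not tested.

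The rest of the fatty acid pathway was described from lists written by general knowledge. At E14 the other mitochondrial beta-oxidation genes had a median log2 genotype ratio of 0.20, with 12 of 15 (of 19 listed) higher in *Stat3* cKO, and the peroxisomal beta-oxidation genes 0.30, with 8 of 11 higher, both beside 39.9% of all genes as deposited. *Echs1*, the hydratase of shorter chains, was at 62.7, 67.5, 96.2 and 111 FPKM, and *Acot2*, a mitochondrial thioesterase that splits acyl-CoA, at 11.97, 6.65, 10.95 and 16.5 FPKM. *Abcd2*, a peroxisomal transporter of fatty acyl-CoA, was at 16.2, 18.7, 9.40 and 16.4 FPKM, 1.75 times CTL at E14, and E14 CTL was the low library, as it was for *Cpt2*. *Acads*, the short-chain dehydrogenase, was listed only jointly with *Gm13826*, and that entry was at 31.2, 31.5, 47.1 and 50.08 FPKM.

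For the steps before the shuttle the shares of higher genes lay near that of all genes. Of the genes for uptake, binding and activation, 6 of 14 were higher in *Stat3* cKO at E14, against 39.9% of all genes, and 3 were at least 1.5-fold lower, against 7.67%. Their median was -0.16, and it was -0.0056 under upper-quartile scaling. *Acsl5* and *Acsl4*, which join fatty acids to coenzyme A, were at 23.2 and 11.6 FPKM in E14 CTL and at 12.1 and 7.64 FPKM in E14 *Stat3* cKO. At E11 they were at 4.64 and 6.15 FPKM in CTL and at 5.49 and 10.1 FPKM in *Stat3* cKO, the opposite direction. *Lpl*, the lipoprotein lipase, was at 2.16 FPKM in CTL and 1.17 FPKM in *Stat3* cKO at E14. Among the regulators 4 of 9 were higher, again beside 39.9% of all genes, with a median of -0.25: *Ucp2*, an uncoupling-family carrier, was at 0.539 and 0.8495 FPKM, *Acaca*, which makes malonyl-CoA, at 24.4 and 20.3 FPKM, and *Ppargc1a*, a coactivator of mitochondrial genes, at 2.79 and 2.35 FPKM. *Ppara*, the nuclear receptor that drives these enzymes in liver, was at 0.634 and 0.957 FPKM, and *Acacb*, the acetyl-CoA carboxylase at mitochondria, at 0.116 and 0.107 FPKM, both too low on average to pass the minimum of 1 FPKM.

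Of the fatty acid synthesis genes, 6 of 12 were higher at E14, against 39.9% of all genes, with a median of -0.0031, whereas at E11 all 12 were higher as deposited, against 61.8% of all genes, with a median of 0.58, and 6 were at least 1.5-fold higher, against 2.18%. *Thrsp*, a lipogenic protein and the 1 gene of these 12 at least 1.5-fold higher at E14, against 5.82% of all genes, was at 0.189, 0.311, 4.85 and 7.52 FPKM. It was also 1 of the 6 at E11, on levels below 1 FPKM, and it passed the minimum mean only through its E14 values. The 3 ketone body genes with a ratio had a median of -0.04 at E14. Both E14 medians changed sign with the scaling.

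The acetyl-CoA and the electrons of beta-oxidation feed the TCA cycle and the respiratory chain, whose genes were compared for that reason. At E14, 3 of 17 TCA cycle genes were higher in *Stat3* cKO, against 39.9% of all genes, and their median log2 ratio was -0.25. Of the complex I subunits 10 of 36 were higher, and their median of -0.09 lay next to the all-gene median of -0.08 and turned positive under upper-quartile scaling. The members' median thus lay 0.49 above that of the TCA cycle genes and 0.33 above that of complex I on the log2 scale, distances that no scaling changes. At E11 the genotype medians were 0.10 for the members, 0.16 for the TCA cycle and 0.05 for complex I. Between the stages in CTL the 3 medians lay side by side, at 0.95 for the members, 0.97 for the TCA cycle and 1.002 for complex I. In *Stat3* cKO they were 1.14, 0.52 and 0.84, of which the last 2 lay below 0 with each library scaled to the same FPKM sum, while the members stayed at 0.28.

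**Figure D5:**
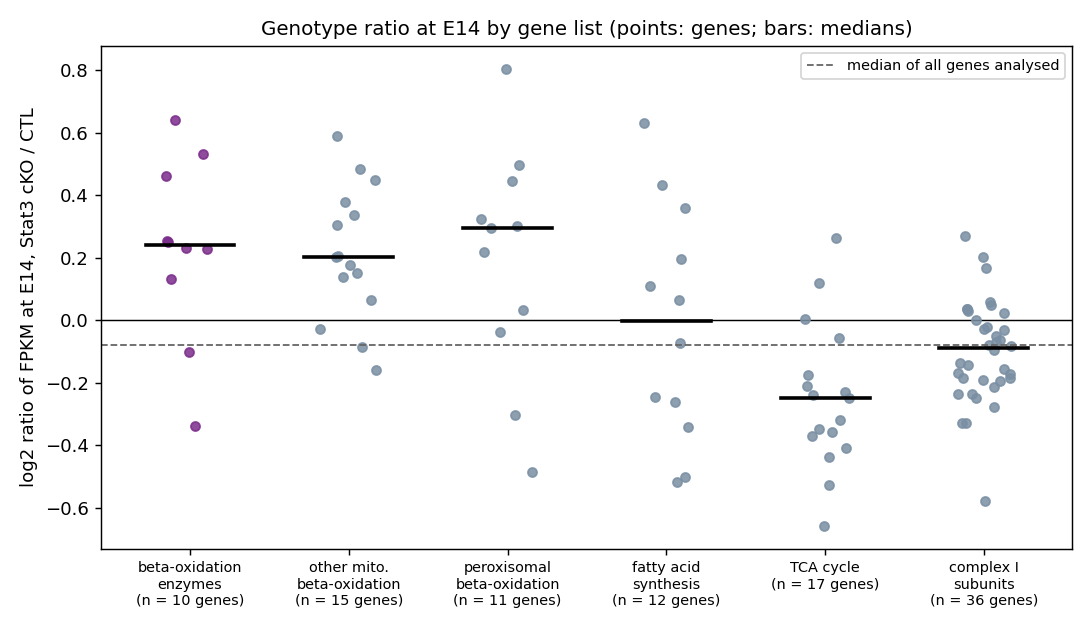
Log2 genotype ratio (*Stat3* cKO over CTL) at E14 for the 10 members and for 5 other lists, 1 point per gene, with a bar at the median of each list and a dashed line at the median of all genes analysed. The members' median is 0.24, the peroxisomal genes' 0.30 and the TCA cycle genes' -0.25.

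Over all 9205 genes whose mean reached 5 FPKM, the patterns most like the members' median profile were those of *Fez1*, *Stard3*, *Rbl2*, *Fam108b* and *Abcb8*. Likeness was the distance between the 3 log2 ratios of genotype at E11, genotype at E14 and stage in CTL, over the 4 libraries, and the 5 lay at 0.0519 to 0.0716. *Fez1* was at 114, 126, 225 and 264 FPKM, with genotype ratios of 1.11 at E11 and 1.18 at E14 and a stage ratio of 1.97 in CTL.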

How the data were processed

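Neural progenitors were sequenced in 4 libraries, 1 for each stage and genotype. The authors checked reads with FastQC, ran TopHat and Cufflinks, and deposited FPKM values per gene. The submitters' processing notes name Bowtie 0.12.2 and the builds mm8 and mm9 without saying what each was used for, and the annotation is not given in the sources used here. Reads were not realigned. FPKM corrects for transcript length and for mapped fragments, so 1 library rich in a few transcripts lowers the values of its other genes.

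Values were compared as plain ratios without a pseudocount over the 12449 entries with a mean of at least 1 FPKM. A ratio of at least 1.5 in either direction was counted. Entries that join several symbols were kept as separate entries (140 in all). With 1 library per group no test was run. The members, the lists and the rules were chosen with earlier results of these data known. Named genes were the 10 members, *Stat3*, 9 fixed partners (*Acads* only in a joint entry), up to 3 genes per list and direction past 1.5-fold at E14, and the 5 nearest profiles. *Cpt1c*, *Gareml*, the single marker genes and the genes of the closing observations were named after their values were seen. The alternatives were 4 scalings, pseudocounts of 0.1 and 1 FPKM, a minimum mean of 5 FPKM or none, and folds of 2 and 1.25. The steps were tested on simulated data. Python 3.11.15 was used with numpy 2.4.6, pandas 2.3.3 and matplotlib 3.10.9.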

Additional observations from a re-analysis of the deposited data

Results flagged for a closer look

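Among 40 genes described with a mean of at least 1 FPKM, the genotype ratio of deposited values went opposite ways at the 2 stages for 11, against 55.4% of all genes, and with 1 library per group no such difference was tested. The log2 ratio at E14 less that at E11 was 0.23 for *Acadvl* and -0.19 for *Hadhb* among the members, and neither pair of directions held under every scaling. With each library scaled to the same FPKM sum *Acadvl* was at 0.23 at E11 and 0.16 at E14, both above 0, and under upper-quartile scaling *Hadhb* was at -0.03 at E11 and 0.05 at E14, the reverse of its deposited signs.

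The difference was 1.44 for *Acot2*, -1.19 for *Acsl5*, -1.32 for *Acsl4*, -0.70 for *Acaca*, -0.41 for *Ppargc1a* and -0.84 for the joint entry of *Acsl3* with *Utp14b*, and these 6 had the same directions under each of the 5 scalings, the deposited one included. It was 0.31 for *Cpt1c*, -0.28 for *Gareml* and -0.55 for *Oxct1*, whose directions did not hold under each of them.

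The medians of 6 of 9 lists, with the members counted as 1 of the 9, also took opposite signs at the stages, each from above 0 at E11 to below 0 at E14. The median over all genes did the same, at 0.06 and -0.08. The difference was -0.32 for uptake, binding and activation, -0.39 for the regulators and -0.41 for the TCA cycle, which had these signs under each scaling. It was -0.42 for the ketone body genes, -0.58 for fatty acid synthesis and -0.14 for complex I, which did not.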

How the results depend on the processing

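A value counted as moved when it changed by more than 0.1 on the log2 scale, and a count when it changed by more than 1.5 times. Of the summary values, 141 were unchanged by this measure, 25 moved and 2 reversed, that is, changed sign. Of the values for single genes and for the medians of the other lists 408 were unchanged and 124 moved. There a change of sign was counted only for genes past 1.5-fold as deposited. Smaller ones are thus among the unchanged or moved. Under upper-quartile scaling *Hadhb* at E14 went from -0.10 to 0.05 and the complex I median at E14 from -0.09 to 0.06. A filter cannot change the ratio of a gene, so those settings add to the unchanged. When the all-gene median was set to 0, the members at least 1.5-fold higher at E14 were 2, against 7.28% of all genes. Their median stage ratio in CTL was then 0.73, and the median difference of the genotype ratio between stages was 0.29. Under upper-quartile scaling the E11 genotype median was -0.019 with 3 members higher, against 37.2% of all genes. The E14 median was 0.39 with 3 at least 1.5-fold higher, against 9.07%, the stage median in CTL 0.61 and the difference 0.43. With each library scaled to 1 common FPKM sum the E11 median was 0.34 and the difference -0.15. At E14 0 members were then at least 1.5-fold higher, against 4.73% of all genes. The stage median was 0.39 in CTL with 3 members up and 1 down, against 11.3% and 38.2%. In *Stat3* cKO it was 0.28 with 2 up and 2 down, against 5.59% and 62.7%. Leaving the highest entries out of that sum gave a stage median of 0.41 in CTL with 3 up and 1 down, against 11.6% and 37.5% of all genes. In *Stat3* cKO it gave 0.65 with 6 up and 2 down, against 8.97% and 41.7%. With a pseudocount of 1 the E14 count was 0. At a 2-fold threshold the counts were 0 at E14 and 4 up and 0 down between stages in CTL. At the lower threshold they were 3 up and 1 down at E14. The share of all genes past either of these thresholds is not given here, so these counts cannot be set against it. Where a scaling moved a value, it did so by adding 1 constant to every gene. No paired analysis was possible because each group had 1 library and no test was run. Without replicates and read counts, no precision can be given for any ratio.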

Other observations

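Genes beside the pathway were read after their values had been seen, and these values are given without a test. *Slc27a1*, a fatty acid transport protein, was at 6.77 FPKM (CTL) and 7.19 (cKO) at E11 and at 49.4 (CTL) and 73.1 (cKO) at E14. *Dbi*, which binds acyl-CoA and is also the diazepam binding inhibitor, was at 121, 237, 1555 and 2105 FPKM. Both carried the highest value in E14 *Stat3* cKO. *Eci2*, an isomerase for unsaturated chains, was at 50.6, 53.5, 81.5 and 114 FPKM. *Mlycd*, which breaks down malonyl-CoA, was at 8.26, 9.13, 13.9 and 15.5 FPKM.

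*Acat1* and *Oxct1* had their highest value in E14 CTL instead. *Acat1*, the acetoacetyl-CoA thiolase, was at 32.3, 29.0, 119 and 107 FPKM, and *Oxct1*, which lets cells use ketone bodies, at 62.4, 86.0, 202 and 189 FPKM. *Pdk4*, a kinase that restrains pyruvate oxidation, was at 0.241, 0.241, 0.332 and 1.501 FPKM. It lay under the minimum mean of 1 FPKM, so no ratio was drawn from it.

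*Acsl3* and *Cpt1b* were each listed only jointly with a neighbour. The entry of *Acsl3* with *Utp14b* was at 43.0, 57.8, 66.3 and 49.6 FPKM, and that of *Cpt1b* with *Chkb* at 14.1, 16.1, 20.4 and 23.2 FPKM.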
